A study of Mus musculus with 35 samples.

Results

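Of 30 mouse iPS clones, 9 gave a Myc coding signal well above what their Myc 3′ UTR signal accounts for, and these were compared with 16 clones that did not, whatever factors their labels name. The clones were selected on measured values. A clone entered only if its Nanog probe was well above background, which dropped 3 clones. For the others the log2 signal of the Myc coding probe minus that of the Myc 3′ UTR probe was taken, less the same difference averaged over ES 1 and ES 2, and this quantity is called the Myc excess. Clones with an excess of at least 2 are called clones with the Myc excess, those under 1 clones without it, and 2 clones between these limits entered no class. The 25 compared clones are part of a series of 35 arrays.

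The series measured total RNA on 1-colour (Cy3) Agilent mouse arrays, with 1 array per clone, 2 arrays of ES cells (lines EB-3 and RF8) and 1 array each of the source cells. PαS cells are bone marrow mesenchymal stem cells sorted as CD45- Ter119- PDGFRα+ Sca-1+, OP cells are osteo-progenitors sorted as CD45- Ter119- PDGFRα- Sca-1-, and TTF are tail tip fibroblasts. All came from 6-week-old mice with a Nanog reporter carrying GFP and puromycin resistance, and were transduced with pMX retroviral vectors for Oct3/4, Sox2 and Klf4 (3F), or for these and c-Myc (4F), each together with DsRed. Clones of both labels were picked as GFP+ and DsRed- after puromycin selection and were grown on SNL feeder cells, a mouse fibroblast line. The 9 clones with the excess were 4 from OP, 4 from TTF and 1 from PαS cells, and 7 of them were labelled 4F. The 16 clones without it were 7 from PαS, 5 from TTF and 4 from OP cells, and 3 of them were labelled 4F. Source and label therefore moved with the class, most of all among the TTF clones, where all 4 with the excess were 4F and all 5 without it were 3F.

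Each clone is a line of its own with 1 array, so that p-values measure the spread between clones, and whether any are sister colonies is not known. All 30 clones were scanned in 1 session, and the ES and source cells in others, so that what all clones share against ES cells and an effect of the session cannot be told apart. The share of probes well above background had a median of 64.3% in clones with the excess and 63.1% in those without it. In these bulk RNA samples fewer cells of a type and less RNA per cell cannot be told apart.

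Myc is a transcription factor that binds DNA as a dimer with Max, mostly at the E-box CACGTG, and drives genes of growth, ribosome production and metabolism. The Mxd proteins, Mnt and Mga compete with it for Max, and with Zbtb17 (Miz1) it represses genes such as cell cycle inhibitors. In reprogramming c-Myc speeds colony formation but can be left out, and retroviral promoters are normally shut down in pluripotent cells. A retroviral c-Myc carries the coding region without the gene's own 3′ UTR, so that a coding probe can see its RNA while a 3′ UTR probe sees only RNA of the endogenous gene. Pluripotent cells themselves express Myc, and the excess compares both probes with the same probes in ES cells for this reason.

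The probes that define the classes are shown here because everything else follows from them. From each probe of 60 bases a stretch of 30 is printed, 5′ to 3′, as the array files give it. Capitals mark the stop codon of Myc, which lies in the probe between the other pair. The array annotation places them on mouse build mm7, the coding probe at chr15:62063665-62063724, the stop-codon probe at chr15:62064157-62064216, the 3′ UTR probe at chr15:62064256-62064316 and the Nanog probe at chr6:122750894-122750953.
Myc coding probe: ctgtggagaagaggcaaacccctgccaaga
Myc stop-codon probe: gaaactctggtgcaTAAactgacctaactc
Myc 3′ UTR probe: actgatgcgctggaattaaaatgcatgcca
Nanog probe: tacaacttggtgtgttagtgtatttgtctt

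The Myc excess spread widely among the clones that had it. It was 2.97 in 4F-PαS-iPS #2, 2.11 in 4F-OP-iPS #4 and 6.29 in 4F-OP-iPS #5. Among the TTF clones it was 4.27 in 4F-TTF-iPS #2, 3.09 in #3, 3.85 in #4 and 3.70 in #5. In clones labelled 3F it was 5.69 in 3F-OP-iPS #1 and 4.77 in 3F-OP-iPS #3. These 2 clones carry the signal of a factor that their label does not name, and they are called clones labelled 3F below. The cause was not tested. In the 16 clones without the excess it lay between 0.35 and 0.98, with a median of 0.54. ES 1 and ES 2 lay at -0.35 and 0.35 by construction, and the source cells at -0.24 in PαS, 0.14 in OP and 0.18 in TTF cells.

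Just inside the upper limit lay 4F-OP-iPS #4 (2.11), and just below it 4F-PαS-iPS #1 (1.89) and #5 (1.22), which entered no class. Just under the lower limit lay 4F-PαS-iPS #3 (0.98), and below it came #4 of the same group (0.74) and 4F-OP-iPS #2 (0.89), the only 4F-clones without the excess. The 3 clones dropped for Nanog had the excess too, at 8.33 in 4F-OP-iPS #1, 6.82 in 4F-OP-iPS #3 and 4.97 in 4F-TTF-iPS #1. 

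**Figure D1:**
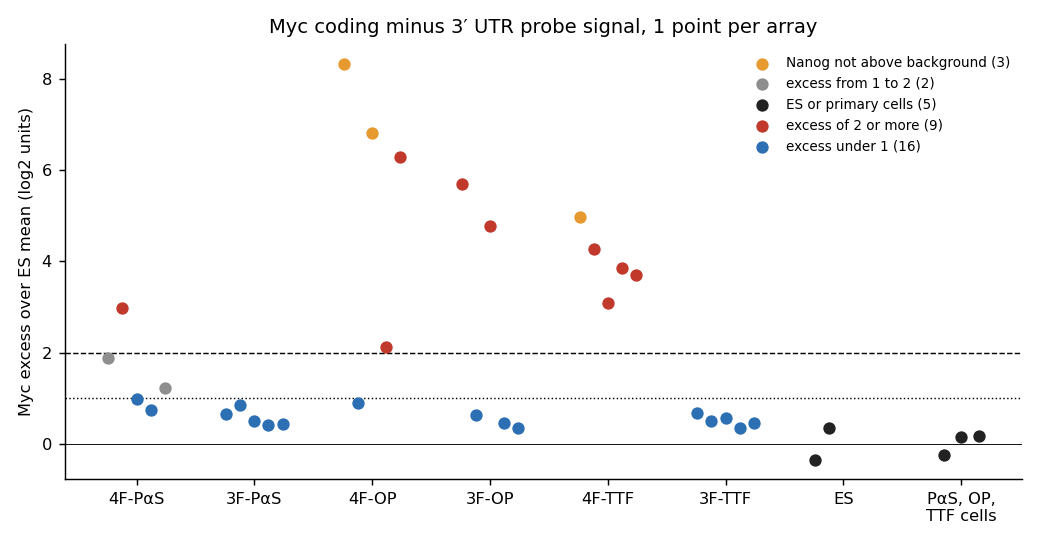
Myc excess (log2 units, vertical axis) of all 35 arrays by group (horizontal axis), 1 point per array, with a dashed line at 2 and a dotted line at 1. The 9 clones with the excess (red) lie between 2.11 and 6.29, the 16 without it (blue) between 0.35 and 0.98, and 2 of the red points are clones labelled 3F.

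The 2 probes behind the excess behaved differently. Signals are given as log2 minus the 75th percentile of the array. The coding probe ran from -1.48 to 1.66 (median 0.17) in clones with the excess and from -4.15 to -2.38 (median -3.52) in those without it, with ES cells at -2.20 and -2.26. The 3′ UTR probe ran from -0.72 to 0.92 (median -0.01) and from -0.57 to 0.90 (median -0.01), with ES cells at 2.17 and 1.42. The classes thus differed in the coding probe, which the rule makes them do, and overlapped over nearly their whole range in the 3′ UTR probe. All compared clones lay below both ES arrays in the 3′ UTR probe.

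The stop-codon probe was not part of the rule, although its excess is taken over the same 3′ UTR probe. Its excess was 0.99 or more (median 2.65) in clones with the Myc excess and from -0.22 to 0.33 (median 0.03) in those without it, with no overlap. In the clones labelled 3F it was 4.37 in 3F-OP-iPS #1 and 3.46 in #3. These 2 clones thus lay apart from the other 3 clones of their group with this probe too.

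The Nanog signal, which the rule used only as a filter, ran from -0.89 to 3.46 (median 1.35) in clones with the excess and from -3.30 to 2.96 (median 2.14) in those without it. The lowest value was that of 4F-OP-iPS #2, far below the next clone without the excess at 0.77. This clone stood apart in other genes as well, and results that rest on it are given without it. The arrays carry 1 probe each for Pou5f1, Sox2 and Klf4, so that an excess could not be formed for the other reprogramming factors. Their signals differed by 0.62 ± 0.51 (SE; limma adjusted p = 0.429), 0.05 ± 0.49 (0.957) and -0.25 ± 0.19 (0.388) between the classes.

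Across the array 1360 of 26644 probes tested differed between clones with and without the excess at a limma adjusted p under 0.05 and at least 2-fold, which is 5.10% of the probes. Of these 774 (2.90%) were higher and 586 (2.20%) lower with the excess. Such probes are called in what follows. With no fold minimum 4784 probes (18.0%) passed. Under normexp background correction 479 probes were called, 303 higher and 176 lower. The median difference was 1.56 among the probes called higher, -1.38 among those called lower and -0.03 over all probes tested. Among genes with a symbol 489 of 14147 were called higher and 346 lower. Signals of the classes did not overlap at all in 91 probes that were higher (0.342%) and 41 that were lower (0.154%), and 78 and 8 of these were called.

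Of the 12 genes with the largest rise in clones with the excess 5 were tissue kallikreins, and both ES arrays lay below every clone with the excess in all 12. The source cells did so except in Pkp1, which was 0.81 in PαS cells, and Alox15, whose highest source value was -3.30. The 12 were chosen by their difference in this comparison. They are the kallikreins (Klk1, Klk1b3, Klk1b4, Klk1b5 and Klk1b8, trypsin-like proteases that release kinins from kininogen), Alox15 (a lipoxygenase), Sprr2d (a precursor of the cornified envelope), Pkp1 (plakophilin, a desmosomal plaque protein), Serpinb3b (a protease inhibitor), S100a14 (a calcium-binding protein), Slc38a5 (an amino acid transporter) and Lrrc26 (a subunit of potassium channels, BC004853 on the array). In 8 of them, which were well above background in at least 12 of the 16 clones without the excess and in all 9 with it, differences ran from 5.80 to 7.63 on the log2 scale, with limma adjusted p between 4.94e-09 and 9.09e-07. The other 4 were Alox15, Serpinb3b, Sprr2d and Lrrc26, which were dim in most or all clones without the excess.

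Klk1, the tissue kallikrein of salivary gland and kidney, ran from 0.01 to 6.24 (median 3.75) in clones with the excess. In clones without it the signal ran from -6.95 to -0.17 (median -3.96). The classes did not overlap, and 4F-OP-iPS #2 was the highest clone without the excess. The difference was 7.63 ± 0.74 (SE, n = 9 and 16; limma adjusted p = 1.94e-07). ES cells lay at -3.80 and -4.74, within the range of the clones without the excess.

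The other tissue kallikreins of the 12 had the same order. Klk1b5 ran from 2.07 to 7.64 with the excess and from -4.45 to 1.79 without it, a difference of 7.48 ± 0.69. Klk1b4 differed by 6.97 ± 0.67, Klk1b3 by 6.52 ± 0.71 and Klk1b8 by 6.22 ± 0.63. In all of them the lowest clone with the excess lay above the highest clone without it, in Klk1b3 at 0.13 against 0.11. Of the 9 tissue kallikreins tested, 8 were called higher and none lower, and the median difference was 6.22 (all probes tested, -0.03). Of the 8 called, 2 were dim in most clones without the excess, Klk1b27 with 3 and Klk1b9 with 4 of 16 clones well above background, and no test is given for them. Klk1b21 differed by 3.47 ± 0.70, a call lost with the slide as a fixed block (3.19 ± 1.11, limma adjusted p = 0.067). Klk1b24 differed by 1.88 ± 0.69 and was not called (limma adjusted p = 0.0598). The kallikreins are close paralogs in 1 cluster, and the probes of Klk1 and Klk1b4 share a run of 28 bases, so that signals of single members are uncertain where probes can bind each other's RNA.

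Alox15, Sprr2d, Lrrc26 and Serpinb3b were not well above background in most or all clones without the excess. Alox15 ran from -3.52 to 3.01 with the excess and from -8.35 to -2.71 without it, where 1 of 16 clones was well above background. Of the 12 genes it alone had overlapping classes, through 4F-OP-iPS #2. Sprr2d was well above background in all 9 clones with the excess and in none of the 16 without it, which makes it at least 22.5-fold higher. Lrrc26 was likewise dim in all 16 and at least 15.8-fold higher. Such bounds set the mean of the bright class against the lowest signals well above background on the dim arrays. Serpinb3b ran from -3.75 to 0.32 with the excess and from -8.54 to -5.27 without it, where 1 of 16 clones was above background. These 4 genes passed the filter on dim probes only through the clones with the excess, so that they had to differ and no test is given.

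The remaining 3 of the 12 were well above background in at least 14 of the 16 clones without the excess. Pkp1 ran from -0.47 to 3.71 with the excess and from -7.26 to -2.64 without it (difference 6.24 ± 0.52). S100a14 ran from 0.45 to 4.13 and from -4.60 to -0.42 (5.91 ± 0.43). Slc38a5 ran from 3.39 to 6.36 and from -2.60 to 2.64 (5.80 ± 0.46). The highest clone without the excess was 4F-OP-iPS #2 in each of the 12 but Serpinb3b, where it was 3F-TTF-iPS #1. In Sprr2d and Lrrc26, which were dim in all 16, this only orders signals near background.

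**Figure D2:**
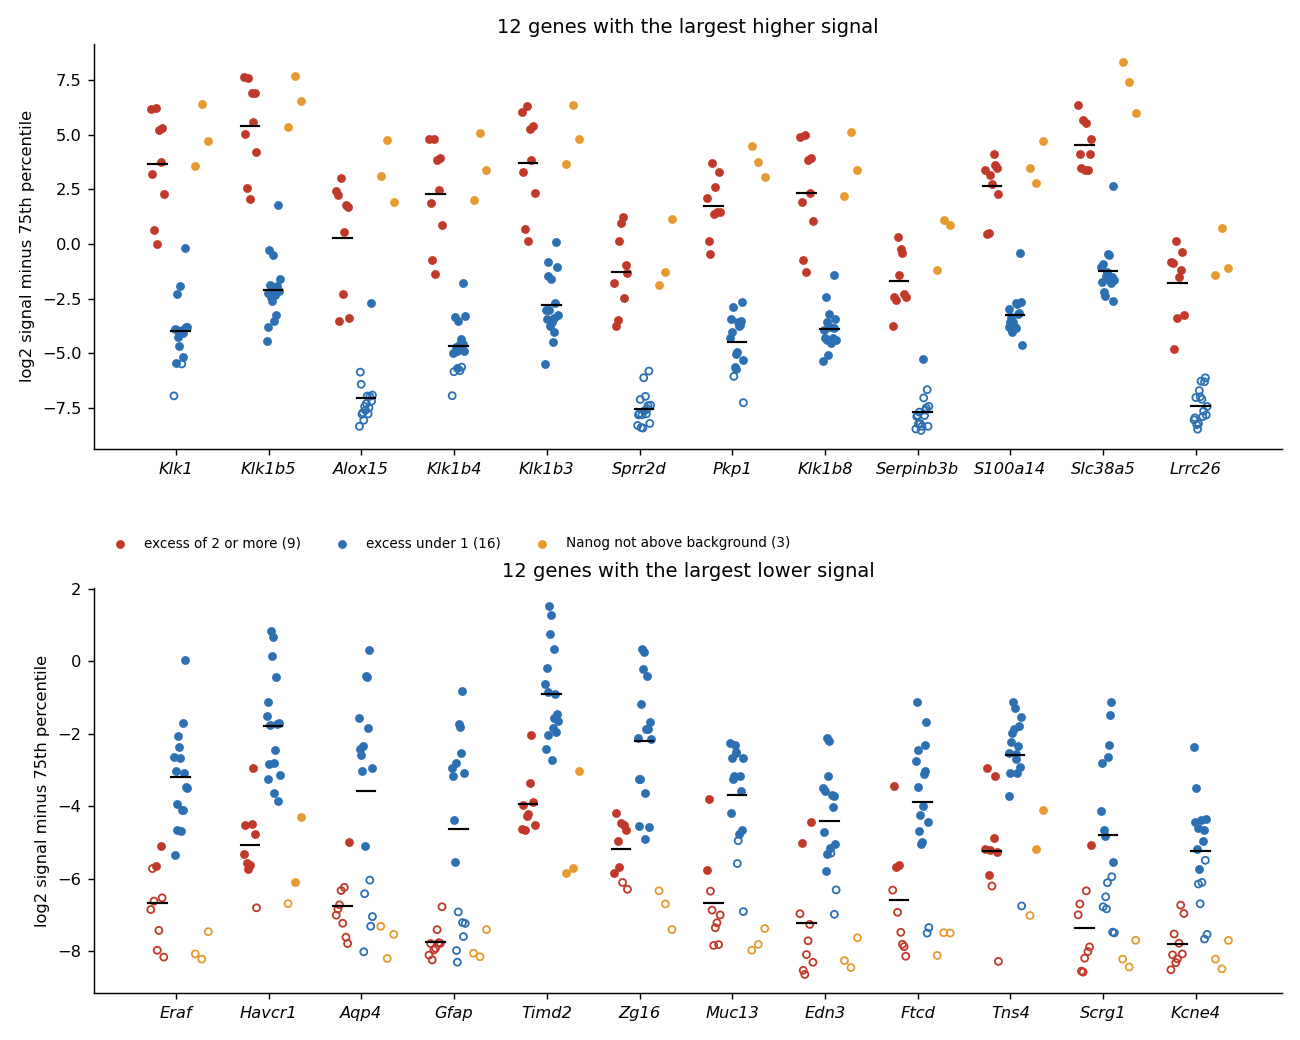
Signal (log2 minus the 75th percentile of the array, vertical axis) of the 12 genes with the largest difference in each direction, 1 point per clone, red with the Myc excess, blue without it and orange for the 3 clones dropped for Nanog; open points were not well above background and bars are class means. In the upper panel 11 of 12 genes have no overlap between red and blue, and in the lower panel 0 of 12.

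Values within groups of 1 source and 1 label are given as a description, since the genes were chosen by the difference between the classes that hold these clones. Among the OP clones labelled 3F, Klk1 was 6.18 in #1 and 3.23 in #3, which had the excess, and -6.95, -3.89 and -5.46 in #2, #4 and #5, which did not. Slc38a5 was 6.36 and 4.14 against -1.07, -1.73 and -0.93 in the same order. Pkp1 was 2.11 and 0.16 against -4.30, -3.44 and -4.01. Among the 4F-PαS clones Klk1 was 0.01 in #2, which had the excess, against -3.79 and -3.80 in #3 and #4, which did not. Among the 4F-OP clones Klk1 was 0.62 in #4 and 6.24 in #5, which had the excess, against -0.17 in #2, which did not. This was the smallest gap of the 3 groups, and in Alox15 #2 (-2.71) lay above #4 (-3.52).

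The 2 clones between the limits lay with the clones that had no excess. In 4F-PαS-iPS #1 (excess 1.89) Klk1 was -3.43, Slc38a5 -1.41 and Pkp1 -4.88. In 4F-PαS-iPS #5 (excess 1.22) they were -2.98, -0.54 and -5.13. Among clones with the excess the smallest values of Klk1 were 0.01 in 4F-PαS-iPS #2 and 0.62 in 4F-OP-iPS #4, the 2 clones with the smallest excess, and the largest were 6.24 in 4F-OP-iPS #5 and 6.18 in 3F-OP-iPS #1, the 2 with the largest. Whether Klk1 follows the size of the excess was not tested.

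**Figure D3:**
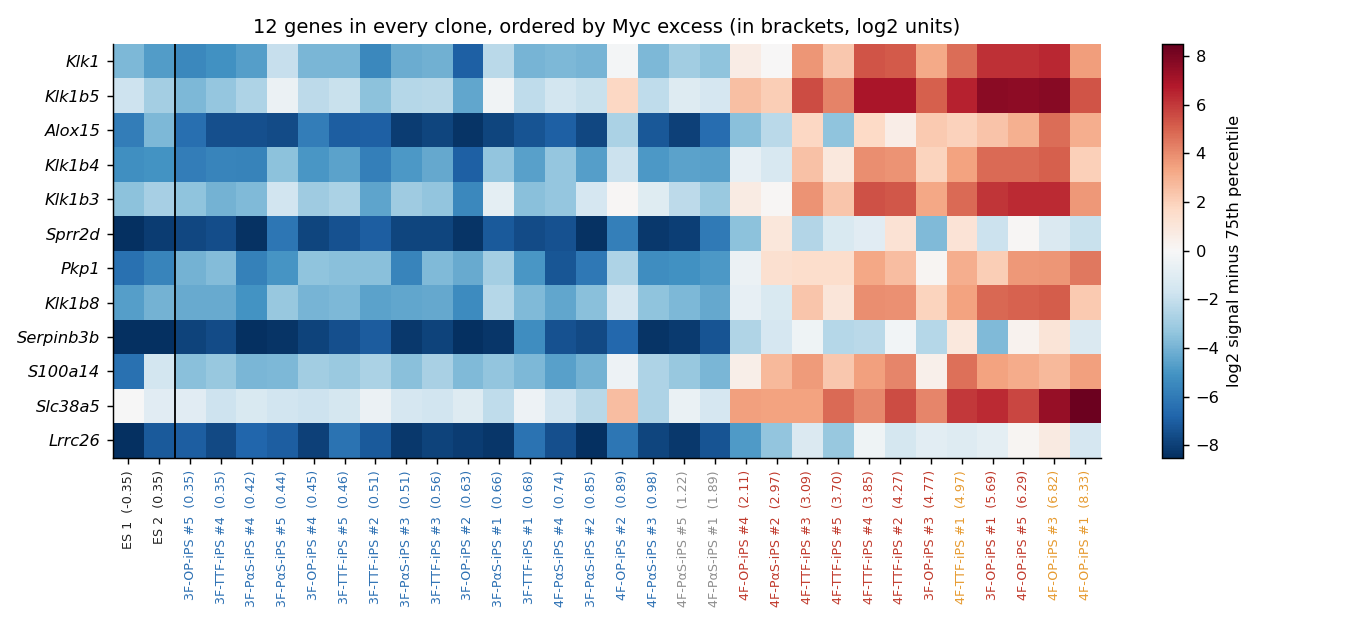
Signal (colour, log2 minus the 75th percentile of the array) of the 12 genes with the largest rise (rows) in both ES arrays and all 30 clones, ordered by Myc excess (in brackets, log2 units). In 11 of 12 rows each of the 9 clones with the excess lies above all 16 without it, and 4F-OP-iPS #2 (0.89) comes closest to them in most rows.

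Members of gene families were counted, families having been chosen after their leading genes were seen. Of the small proline-rich proteins 4 of 9 tested were called higher and none lower (median 0.83), and of the Serpinb clade, which holds inhibitors of intracellular and leukocyte proteases, 7 of 17 (median 0.70). Of the Ly6 and uPAR-like proteins 11 of 20 were called higher and 1 lower (median 1.23). Of the S100a proteins 4 of 11 were called higher (median 0.81), of the lipoxygenases 3 of 7 (0.36), of the claudins 3 of 13 (0.40), of the desmosome genes 2 of 9 (0.32) and of the kallikrein-related peptidases outside the tissue group 3 of 6 (1.14). Of the keratins 5 of 24 were called higher and 1 lower, with a median of 0.06 that turned to -0.15 under normexp background correction and to -0.04 with the cell source as a term. Over all probes 2.90% were called higher and 2.20% lower. The counts include members that were dim in most or all clones without the excess, 2 of the small proline-rich proteins (Sprr2d and Sprr2h), 3 of the Serpinb clade (Serpinb3a, Serpinb3b and Serpinb11), 3 of the keratins (Krt6a, Krt6b and Krt80), Alox15, Slurp1 and Cldn1, and no test is given for these. Under normexp correction the medians were 0.16 for the Serpinb clade, 0.59 for the small proline-rich proteins, 0.53 for the other kallikrein-related peptidases, 0.01 for the lipoxygenases, 0.11 for the claudins, 0.78 for the Ly6 and uPAR-like proteins and 4.64 for the tissue kallikreins.

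Ly6d, a Ly6 protein of lymphoid precursors and keratinocytes, ran from -2.03 to 3.96 with the excess and from -5.86 to -1.39 without it, a difference of 5.51 ± 0.60 (limma adjusted p = 7.41e-07). Ly6a, which encodes Sca-1, the antigen on which PαS cells were sorted, ran from 1.04 to 4.74 and from -1.14 to 1.39, a difference of 3.11 ± 0.39 (limma adjusted p = 7.14e-06). The classes overlapped in both genes. Cldn11, a claudin of tight junctions, differed by 4.76 ± 0.57. Serpinb3a was not well above background in any of the 16 clones without the excess and was at least 5.30-fold higher. Against this direction Ly6k fell by 1.84 ± 0.38 (limma adjusted p = 0.00175), a call that was lost with source and label as terms, with the clones between the limits added and within the 3F clones. Ly6d, Ly6a, Cldn11 and Ly6k were not called within the 4F clones or within the OP clones.

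The genes with the largest fall in clones with the excess overlapped more. The 12, again chosen by their difference, were Eraf (a chaperone of alpha haemoglobin), Havcr1 and Timd2 (receptors of the T-cell immunoglobulin and mucin family), Aqp4 (a water channel), Gfap (an intermediate filament of astrocytes), Zg16 (a secretory granule lectin), Muc13 (a membrane mucin), Edn3 (an endothelin), Ftcd (an enzyme of histidine breakdown), Tns4 (a tensin), Scrg1 and Kcne4 (a potassium channel subunit). Havcr1, Timd2, Zg16 and Tns4 were well above background in at least 7 of the 9 clones with the excess, and their differences ran from -3.30 to -2.63, with limma adjusted p between 7.44e-05 and 0.00231. The other 8 were well above background in at most 3 of these 9 clones and passed the filter only through the clones without the excess, so that no test is given for them. In all 12 there was overlap between the classes.

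Eraf ran from -8.16 to -5.09 (median -6.62) with the excess, with 2 of 9 clones well above background, and from -5.35 to 0.04 (median -3.28) without it. Havcr1 ran from -6.80 to -2.94 and from -3.84 to 0.84, a fall of 3.30 ± 0.54. Timd2 ran from -4.65 to -2.03 and from -2.72 to 1.52, a fall of 3.05 ± 0.46. ES cells lay below every compared clone in Havcr1 and Timd2, with both arrays at -8.24 and -8.86, and at -8.29 and -7.74 in Eraf, near its lowest clones with the excess. Gfap and Kcne4 were not well above background in any of the 9 clones with the excess, which makes them at least 2.57-fold and 1.69-fold lower.

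Aqp4 showed the widest spread among clones without the excess, from -8.02 to 0.31, where 11 of 16 clones were well above background. In clones with it the signal ran from -7.79 to -4.98, with 1 of 9 above background. The call of Tns4 was lost with the factor label as a term (-1.78 ± 0.64, limma adjusted p = 0.0684), and those of Tns4 and Zg16 with source and label as terms and within the 3F clones. None of the 4 genes was called within the 4F clones (limma adjusted p of 0.151 or more) or the OP clones (0.108 or more).

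Source, label and slide moved with the class, and each comparison that holds one of them fixed rests on few clones. On the 3 slides that held both classes, each with 1 clone with the excess and 3 without it, Klk1 differed by 5.77 or more, a direction that the choice of the gene fixes. With the slide as a fixed block 1343 probes were called, with the cell source as a term 1638, and with the factor label as a term 1236, of which 959 were higher and 277 lower. Of these calls 697, 1200 and 832 were among the 1360 called without the term. The 8 genes of the largest rise that were measured in both classes were called in each of these, as were Havcr1, Timd2 and Zg16.

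Within the 4F label, which holds 7 clones with the excess and 3 without it, 19 of 26962 probes were called (0.0705%), 8 higher and 11 lower, while 3197 had an unadjusted p under 0.05. The 8 genes measured in both classes had differences of 4.83 or more there and none was called, with limma adjusted p between 0.0529 and 0.224. Of the 8 probes called higher, 6 were dim in at least 2 of the 3 clones without the excess, among them those of Serpinb3b, Serpinb2 and Cyp4b1, and no test is given for them. Lcp1, an actin-bundling protein of blood cells, Hic2 and Zbtb10 were called lower by 2 probes each (Lcp1 by 3.33 ± 0.29 and 3.18 ± 0.34). The count depended on single clones. It was 9 without 4F-PαS-iPS #2, 111 without #3 and 96 without #4. It was 24 without 4F-OP-iPS #2, 46 without #4 and 6 without #5. Without 4F-TTF-iPS #2, #3, #4 or #5 it was 3, 7, 8 or 7.

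Within the 3F label 2 clones with the excess stood against 13 without it, and 1730 of 28780 probes were called (6.01%), 1204 higher and 526 lower. The 8 genes measured in both classes were called, with differences of 5.35 or more, as were Havcr1 and Timd2. Both clones with the excess came from OP cells, and 3 of the 13 without it did. Within the OP clones, 4 with the excess against 4 without it, 4 of 26478 probes were called (0.0151%). The 8 genes differed there by 4.56 to 8.19 and none was called, with limma adjusted p between 0.119 and 0.150. The 4 probes called were those of Dkk3 (-2.74 ± 0.19), a secreted protein of the Dickkopf family, of the cytochromes Cyp2d22 and Cyp2d12 (-2.69 ± 0.26 and -2.83 ± 0.27), and 1 with no gene symbol that was dim in all 4 clones without the excess.

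The label itself was compared among the 16 clones without the excess, 3 of them 4F and 13 3F. Of 27810 probes 3 were called (0.0108%), and 4855 had an unadjusted p under 0.05. Fundc2 was higher in the 4F-clones by 1.15 ± 0.14 (limma adjusted p = 0.00655), while Ifng and Brunol5, which were lower, were not well above background in any of the 3 4F-clones, so that no test is given for them. None of the 3 is among the 24 genes with the largest differences by Myc excess. Leaving out 4F-OP-iPS #2 gave 8 calls. Whether the effect of the label differs between clones with and without the excess was not tested.

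**Figure D4:**
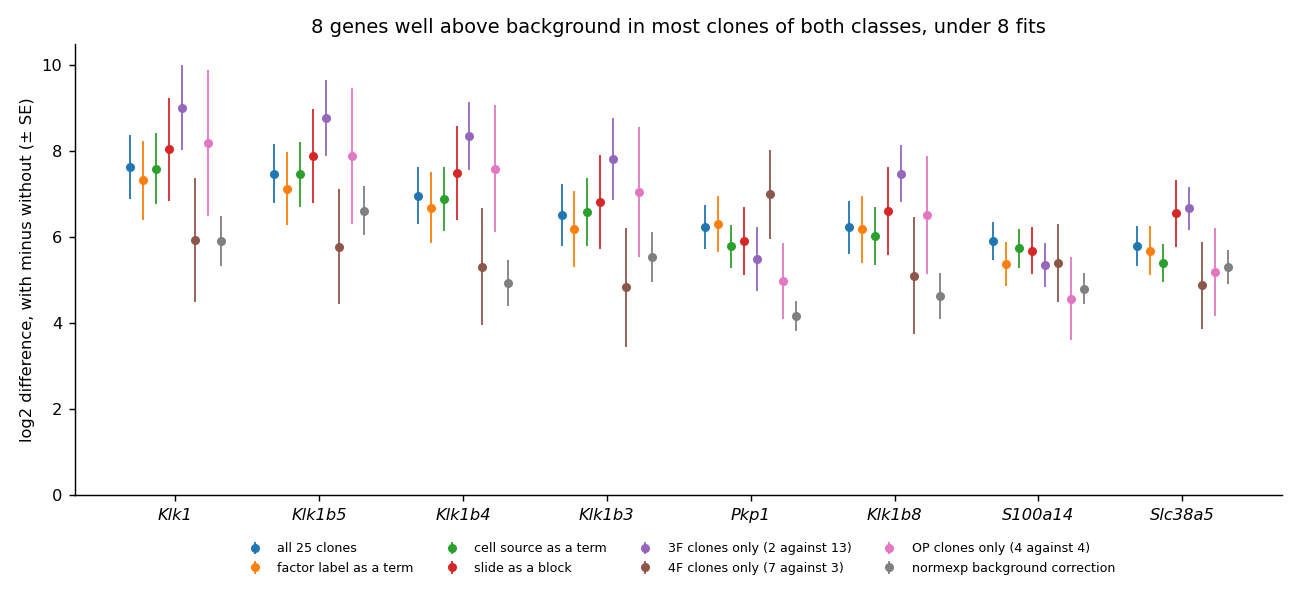
Log2 difference between clones with and without the Myc excess (vertical axis, bars ± SE) of the 8 genes of the largest rise that were well above background in most clones of both classes (horizontal axis), in 8 fits named under the plot. All points lie above 0; the 4F clones alone give 4.83 or more, and normexp correction gives 4.16 to 6.61.

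Leaving out 4F-OP-iPS #2, the clone without the excess that stood apart, gave 1596 calls, 729 higher and 867 lower. The 8 genes of the largest rise and the 4 of the largest fall that were measured in both classes were called in each of the 25 fits that left out 1 clone.

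Gene lists were read against the 5.10% of all probes called. Of the Myc network's 14 genes, all tested, 1 was called higher and none lower, and the median difference was 0.03. Mxd1, which competes with Myc for Max and accompanies differentiation, rose by 1.15 ± 0.22 (limma adjusted p = 0.000929). It ran from -0.62 to 1.48 (median 0.46) with the excess and from -1.18 to 0.30 (median -0.70) without it. The call was lost with source and label as terms (0.90 ± 0.31, limma adjusted p = 0.0612), with the clones between the limits added (0.95 ± 0.23, under the fold minimum), within the 4F clones (0.73 ± 0.48, adjusted p = 0.575) and within the OP clones (0.96 ± 0.52, 0.435).

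The other members were not called. The Myc relatives Mycn and Mycl differed by 0.11 ± 0.18 and -0.58 ± 0.23, and the shared partner Max by 0.08 ± 0.11. Mxd3 differed by 0.51 ± 0.22, Mxd4 by 0.26 ± 0.20, Mxi1 by -0.10 ± 0.21, Mnt by -0.02 ± 0.14 and Mga by -0.20 ± 0.12. Of the parallel Mlx branch, which senses glucose, Mlx differed by 0.20 ± 0.12, Mlxip by 0.00 ± 0.10 and Mlxipl by -0.59 ± 0.47. Zbtb17 (Miz1), the partner in repression, differed by 0.06 ± 0.10 and Fbxw7, which marks Myc for breakdown, by -0.18 ± 0.09.

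Genes known as direct Myc targets in growth moved little. Of 39 tested none was called in either direction. A positive difference was found in 30, where 46.0% of all probes had one, and the median was 0.16, against -0.03 over all probes. With no fold minimum 4 passed, all higher, where 18.0% of all probes passed. These were Bop1 (0.56 ± 0.16, limma adjusted p = 0.0154), a ribosome assembly factor, Cdk4 (0.54 ± 0.15, 0.0171), a kinase of the G1 phase, Nme1 (0.69 ± 0.22, 0.0281), a nucleotide kinase, and Nop16 (0.36 ± 0.11, 0.0284). The median fell to -0.01 with the factor label as a term and within the 3F clones, and was 0.25 with the cell source as a term. Of 36 other ribosome biogenesis genes none was called and the median was 0.08.

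Of 20 genes known to be repressed by Myc none was called and the median was -0.16. With no fold minimum, at which 18.0% of all probes passed, Klf6 (-0.47 ± 0.14, limma adjusted p = 0.0209) and Gas1 (-0.81 ± 0.25, 0.0260), a growth arrest protein, passed. The cell cycle inhibitors Cdkn1a and Cdkn1b, classic genes of this list, differed by 0.33 ± 0.18 and -0.01 ± 0.19.

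E-boxes were looked up in the promoters of these genes, since Myc binds that motif. The RefSeq table (GRCm38.p6) gives 250 bases before to 50 after each gene's start, and genes of 1 chromosome were not used here. The motif CACGTG reads the same on both strands. It stood in 6 of 32 growth genes with a promoter in the table (18.8%), in 8.09% of 27025 genes in all and in 11.2% of 10824 genes tested. It stood in 20 of 347 genes called higher (5.76%) and 28 of 264 called lower (10.6%). Of the 12 genes with the largest rise 9 had a promoter in the table, and 1 of these held the motif (Slc38a5). Of the 12 with the largest fall 7 had one and 1 held it (Kcne4). These are matches of letters, and no binding was measured. The matches in Slc38a5, Kcne4 and, as a growth gene for comparison, Cdk4 are shown with 12 bases on either side, the motif in capitals. They lie at chrX:8271339-8271368, chr1:78816845-78816874 and chr10:127063351-127063380, all on the plus strand, and the Cdk4 window holds 4 motifs.
Slc38a5: gcagacaggtgaCACGTGtccctgttaaga
Kcne4: ttcctcccggaaCACGTGacgatgcatttc
Cdk4: atggcagccagtCACGTGccacacagcgta

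Of 30 cell cycle genes 2 were called, both higher, a share near the 5.10% of all probes, and the median was 0.10. E2f2, an activator of S-phase genes, ran from 0.19 to 1.02 (median 0.43) with the excess and from -3.09 to -0.81 (median -1.40) without it. The classes did not overlap, the lowest clone without the excess was 4F-OP-iPS #2, and ES cells lay at 2.32 and 0.67. The difference was 2.02 ± 0.20 (limma adjusted p = 3.18e-07). Ccnd1, cyclin D1, rose by 1.19 ± 0.22 (limma adjusted p = 0.000641). Neither was called within the 4F clones (2.35 ± 0.38, adjusted p = 0.063, and 1.41 ± 0.45, 0.261) or within the OP clones (2.29 ± 0.48, 0.145, and 1.81 ± 0.44, 0.165). The median of the list was -0.14 with the factor label as a term, -0.45 within the 3F clones and -0.25 with the slide as a block.

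Of 18 genes of the p53 and Ink4a/Arf pathway 2 were called, both higher, and the median was 0.03. Over all probes 5.10% were called, with 2.90% higher. Perp, a p53 target that is also a desmosomal protein, ran from 2.64 to 5.30 with the excess and from 1.19 to 3.30 without it, a rise of 1.67 ± 0.28 (limma adjusted p = 0.000195). Cdkn2a, the locus of p16Ink4a and p19Arf, ran from -1.73 to 1.30 and from -3.23 to -0.10, a rise of 1.53 ± 0.34 (limma adjusted p = 0.00304). Trp53 itself differed by 0.73 ± 0.19, under the fold minimum. Both calls held with label, source or slide in the fit, and neither was called within the 4F clones (adjusted p = 0.248 for Perp and 0.224 for Cdkn2a) or the OP clones (0.211 and 0.475).

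Of 20 glycolysis genes 1 was called, Pfkp (1.09 ± 0.37, limma adjusted p = 0.0442), a share like the 5.10% of all probes, and the median was 0.27, falling to 0.03 with the factor label as a term. The glucose transporter Slc2a1 (0.93 ± 0.20, limma adjusted p = 0.00203) and the pyruvate kinase Pkm (0.73 ± 0.19, 0.0104) passed with no fold minimum, as did 18.0% of all probes. The call of Pfkp held in 8 of the 25 fits that left out 1 clone, with differences from 0.88 to 1.22.

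Pluripotency genes were compared only among clones that passed the Nanog filter, and the 3 clones it dropped had the excess too. Single differences ran from -1.27 to 1.46. Of 29 tested 1 was called, Tdgf1 (1.45 ± 0.51, limma adjusted p = 0.0477), a co-receptor of Nodal, a share near the 5.10% of all probes, and the median was 0.06, or -0.23 within the 3F clones and 0.57 within the 4F clones. Tdgf1 held in 8 of the 25 fits that left out 1 clone, with differences from 1.23 to 1.65. Fbxo15 was lower by 0.57 ± 0.13 and Klf5 by 0.61 ± 0.21, under the fold minimum. Nanog, on which clones were filtered, is not part of this list's test.

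The similarity of each clone to ES cells was measured as R², the squared correlation over 40831 probes with the mean of both ES arrays. It was 0.885 ± 0.016 (SD, n = 9) with the excess and 0.873 ± 0.017 (n = 16) without it. The values ran from 0.863 to 0.913 and from 0.825 to 0.899, the lowest being 4F-OP-iPS #2, and the classes overlapped. The difference was 0.0120 (exact permutation test, two-sided, p = 0.0949). Without 4F-TTF-iPS #2 it was 0.0148 (exact permutation p = 0.0421), the only clone whose removal gave a p under 0.05. It was 0.00857 without 4F-OP-iPS #4 (exact permutation p = 0.229) and 0.00874 without 4F-OP-iPS #2 (exact permutation p = 0.128). Within the 4F clones it was 0.0219 (exact permutation p = 0.225), which rests on 4F-OP-iPS #2, since without this clone it was 0.00076. The 3 clones dropped for Nanog had the excess too but entered no class. Their R² ran from 0.833 to 0.854, below every clone with the excess. The ES arrays had an R² of 0.898 with each other, which sets 1 array against 1 array and not against a mean. Measured that way, the highest compared clone had 0.880 with ES 1 and 0.898 with ES 2.

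Genes that silence retroviral sequences in pluripotent cells were tested as a further list. Of 24 none was called and the median was 0.17, which turned to -0.10 with the factor label as a term and -0.13 within the 3F clones. With no fold minimum 7 of the 24 passed, 6 as higher and 1 as lower, where 18.0% of all probes passed. These were Hdac2 (0.55 ± 0.11, limma adjusted p = 0.00133) and Hdac1 (0.57 ± 0.19, 0.0414), histone deacetylases, Cbx5 (0.56 ± 0.17, 0.0282), a heterochromatin protein, Setdb1 (0.34 ± 0.11, 0.0380), a histone H3 methyltransferase, Uhrf1 and Atrx (0.58 ± 0.20 and 0.54 ± 0.19), and Yy1 (-0.33 ± 0.10, 0.0240).

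**Figure D5:**
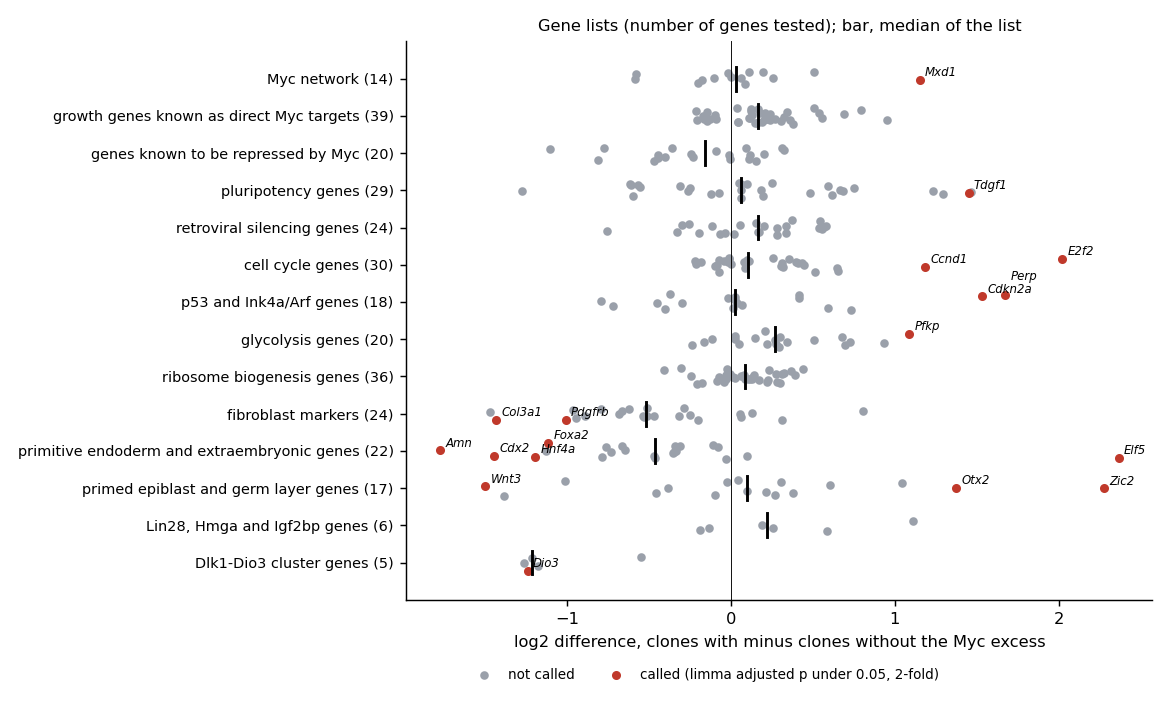
Log2 difference between clones with and without the Myc excess (horizontal axis) of the genes of 14 lists (rows, number tested in brackets), 1 point per gene, red where called, with a bar at the list's median. Medians lie between -0.16 and 0.27 in 11 of the lists, and at -0.47, -0.52 and -1.21 in the other 3.

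Of 22 lineage genes of the primitive endoderm and extraembryonic tissues 4 were called lower and 1 higher, against 2.20% and 2.90% of all probes. A positive difference was found in 2, where 46.0% of all probes had one, and the median was -0.47. Amn, an endoderm receptor subunit, fell by 1.77 ± 0.50 (limma adjusted p = 0.0149) and Hnf4a, an endoderm transcription factor, by 1.19 ± 0.26 (0.00304). Cdx2 (-1.44 ± 0.50) and Foxa2 (-1.11 ± 0.38) held in 11 and 12 of the 25 fits that left out 1 clone. Elf5, a trophoblast and mammary factor, rose by 2.36 ± 0.64 (0.0125), a call lost with the factor label as a term (2.18 ± 0.80), with the slide as a fixed block (2.46 ± 0.93) and within the 3F, 4F or OP clones. Hnf4a lost its call under normexp correction, and both Amn and Hnf4a did with the clones between the limits added and within the 4F or OP clones. Amn ran from -1.02 to 2.17 with the excess and from 0.09 to 5.44 without it, so that the classes overlapped, and ES cells lay at -2.17 and -0.66.

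Of 17 genes of the primed epiblast and germ layers 2 were called higher and 1 lower, against 2.90% and 2.20% of all probes. The median was 0.10, or -0.16 under normexp correction and -0.34 within the 3F clones. Zic2, a neural plate factor, rose by 2.28 ± 0.43 (limma adjusted p = 0.000707), from a class in which 9 of 16 clones were well above background to one in which all 9 were. Otx2 rose by 1.37 ± 0.39 (0.0168) and Wnt3 differed by -1.50 ± 0.43 (0.0176). The calls of Otx2 and Wnt3 held in 9 and 12 of 18 other settings, and that of Zic2 was lost under normexp correction and within the 4F or OP clones. Of 6 genes of the Lin28, Hmga and Igf2bp families none was called (median 0.22).

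Of 5 genes tested of the imprinted Dlk1-Dio3 cluster 1 was called, against 5.10% of all probes, and the median was -1.21. Dio3 differed by -1.24 ± 0.43 (limma adjusted p = 0.0481) and held in 6 of the 25 fits that left out 1 clone, with differences from -1.48 to -1.01. Dlk1 was lower by 0.55 ± 0.12 (0.00301), under the fold minimum. Meg3 (Gtl2 on the array), Rian and Mirg, the maternally expressed RNAs of the cluster, differed by -1.17 ± 1.05, -1.26 ± 0.68 and -1.21 ± 0.67. The median of the list was 0.29 within the 4F clones, 0.65 within the OP clones and 0.32 with source and label as terms.

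Of 24 fibroblast markers tested 2 were called lower and none higher, against 2.20% and 2.90% of all probes. A positive difference was found in 5, where 46.0% of all probes had one, and the median was -0.52. Col3a1 differed by -1.43 ± 0.50 (limma adjusted p = 0.0455) and Pdgfrb by -1.01 ± 0.35 (0.0483). They held in 6 and 7 of the 25 fits that left out 1 clone, and within the 4F clones Col3a1 differed by 0.11 ± 0.88 and the median of the list was 0.34. The log2 of the summed level ran from 7.75 to 9.21 (median 8.16) in clones with the excess and from 7.39 to 9.56 (median 8.33) in those without it, against 5.38 and 7.91 in ES cells and 9.82 or more in the source cells. No marker was dim in every clone of either class. With no fold minimum, at which 18.0% of all probes passed, S100a4 was higher (0.81 ± 0.23) and Loxl1 and Timp3 were lower as well. SNL feeder cells are fibroblasts too, and the part of feeder RNA, of residual source cells or of differentiated cells in these differences was not tested.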

How the data were processed

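Total RNA of 30 iPS clones, 2 ES lines and 3 source cell samples was measured on 1-colour Agilent arrays, 1 per sample. The deposited scanner files hold spot intensity values from Agilent Feature Extraction, background-subtracted and detrended by the authors, with annotation on mm7. The authors also deposited a log2 table centred on each probe's median over the arrays, and the paper names GeneSpring GX for its data analysis. Here log2 of the processed intensity minus each array's 75th percentile was used, with control spots and outlier spots left out and spots of 1 probe averaged. Of 41174 gene probes, 26644 entered the fit, those well above background in at least 9 of the 25 clones, as many as the smaller class holds, 14526 did not, and the 4 Myc and Nanog probes were kept out of it. Classes were compared with limma 3.58.1 in R 4.3.3 (Benjamini-Hochberg adjusted p under 0.05 and at least 2-fold), and R² with an exact permutation test in scipy 1.17.1. The fit was tested on simulated data. Precision is limited by the number of arrays.

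The members and gene lists were chosen with earlier results of these data known. Named are the Myc network, the other reprogramming factors, the 12 genes with the largest difference in each direction (1 probe per gene, RIKEN clone names and predicted genes left out) and at most 4 called members of a list in each direction; family members and genes passing without the fold minimum were added after their values were seen. Accessions were matched to RefSeq for 22951 of 41174 probes. The excess planned for the other reprogramming factors could not be formed, since each has 1 probe. Alternatives covered background correction, scaling, filters, source, label, slide and clone number as terms, other class limits and each clone left out in turn. The comparisons within the 3F clones and within the OP clones, the label comparison without 4F-OP-iPS #2 and the R² comparison without each clone lacking the excess were chosen after seeing the data.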

Additional observations from a re-analysis of the deposited data

Results flagged for a closer look

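In 107 checks of a single clone against the others of its class, 1 clone was farther from its neighbour than the 95% limit of Dixon's test allows, where chance gives about 1 in 20 groups. It was 4F-TTF-iPS #3 in Timd2, at -2.03 against -3.36 in the nearest other clone with the Myc excess.

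The 3 clones dropped for Nanog entered no comparison. In all 3 of them, 12 of the 12 genes with the largest rise lay above every clone without the excess. This difference was not tested.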

How the results depend on the processing

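The main fit called 1360 probes between clones with and without the Myc excess, and each other fit made its own calls. There were 479 under normexp correction, 689 for probes above background in every compared clone and 824 with the clones from 1 to 2 added. With the Nanog-dim clones kept there were 2154, with no fold minimum 4784, within the 4F clones 19 and within the OP clones 4. In this order 460, 673, 804, 1219, 1360, 13 and 2 of these calls were among the 1360. The counts within the 4F and OP clones rest on fewer clones, while the 3F clones, 2 with the excess against 13 without it, gave 1730. The cause of these differences was not tested. Leaving out 1 clone gave 1138 to 1630. With the source as a term the 4F clones gave 1 call, and leaving out 1 of them gave 3 to 111. The label comparison gave 5 calls with the source as a term and 8 without 4F-OP-iPS #2. The difference in R² was 0.00857 to 0.0148 with 1 of the 25 clones left out, and passed only without 4F-TTF-iPS #2 (exact permutation p = 0.0421). Col3a1 turned to 0.11 within the 4F clones. With the clone number as a replicate block 1298 probes were called. The numbers carry no pairing, since of 53 same-numbered pairs 7 had deviations that correlated over 0.1 and the median was -0.08, and 2 of 25 clones correlated best with their own number. The alternatives for the excess of the other reprogramming factors were not run, since each has 1 probe. A gene not well above background has only a bound.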
